A study of Mus musculus with 7 samples.

Results

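Tcf7-expressing CD8 T cells were 256 of the 40416 cells kept from mouse brains that carried GL261 glioma, a transplantable mouse line. They were picked by their own transcripts: at least 300 genes and at most 10% mitochondrial unique molecular identifiers (UMIs, each standing for 1 captured transcript), at least 2 UMIs of Cd3e, Cd3d and Cd3g together, at least 1 of Cd8a and Cd8b1 together, at least 1 of Tcf7, at most 3 of C1qa, C1qb and C1qc together, and no UMI of Cd4, Foxp3, Mki67 or Havcr2. Dropping the Havcr2 and Tcf7 conditions left 1276 gated CD8 T cells, which also held 553 cells with Havcr2 and no Tcf7 (called Havcr2+ cells below), 38 with both genes and 429 with neither.

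Live leukocytes (CD45+ DRAQ7-) were sorted from the left hemispheres of wild-type female mice 8 to 9 weeks old on day 21 after tumour implantation, and their 3′ transcripts were counted in single cells. The mice had received PT2385 together with ICB (the combination), ICB alone, PT2385 alone, or were labelled untreated. PT2385, a small-molecule inhibitor of the transcription factor HIF-2α, was given at 10 mg/kg from day 7, and ICB was a pair of blocking antibodies against PD-1 (aPD-1) and TIM-3 (aTIM-3), the products of Pdcd1 and Havcr2. Each library pooled 5000 cells from each of 2 mice, with 2 libraries per group except for 1 untreated library. The labels mention a vehicle and isotype control antibodies without saying which mice had them, and p-values measure the spread between pools. HIF-2α is encoded by Epas1, which was at 0 to 6.26 counts per 1000000 UMIs (CPM) in the Tcf7-expressing cells, so the drug's own target was near the detection limit there.

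TCF-1, the product of Tcf7, is a DNA-binding factor at the end of the Wnt pathway that keeps T cells able to self-renew. CD8 T cells that express it include naive and central memory cells, which circulate through lymphoid organs by way of homing receptors such as those encoded by Ccr7 and S1pr1. They also include a stem-like or progenitor subset found in chronic infection and tumours, which carries PD-1, lacks TIM-3 and gives rise to TIM-3-positive effector and exhausted cells. PD-1 blockade is known to act largely through that progenitor subset in mouse models.

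The cells carried a median of 7296 UMIs (range 718 to 30094), 5 UMIs of Cd8a and Cd8b1 and 14 of the Cd3 genes, which the rule itself required. The 8 T cell identity genes outside the rule (Cd247, Trac, Trbc1, Trbc2, Lck, Thy1, Cd5 and Cd2, which encode parts of the T cell receptor, its signalling kinase and surface proteins of T cells) summed to 3360 to 3939 CPM over the libraries, against 3914 to 4661 CPM in Havcr2+ cells. That the cells were CD8 T cells rests on the Cd8a and Cd8b1 UMIs used to pick them. Tcf7 was present at a median of 2 UMIs (range 1 to 13), and 92 of the 256 cells were admitted by a single Tcf7 UMI, so capture of 1 molecule divided them from the 429 cells with neither gene. Just outside the other limits lay 385 cells without a Cd8 UMI, 15 cells with 1 Cd4 UMI, 13 with 1 Mki67 UMI and 12 with 1 Havcr2 UMI. Natural killer, γδ T cell and group 2 innate lymphoid cell lists summed to 257 to 754, 20.2 to 223 and 146 to 608 CPM over the libraries, and Il5 and Il13 were at 0. The list of CD4 and regulatory T cells, without the Cd4 and Foxp3 of the rule, summed to 748 to 1618 CPM over 6 markers.

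Transcripts of myeloid and B lineages reached higher sums in single libraries. The 15 macrophage and microglia markers, all detected, summed to 5702 and 813 CPM in the combination pools, 2532 and 1300 in the ICB pools, 2994 and 726 in the PT2385 pools and 2367 in the untreated pool. The 11 dendritic cell markers reached 6681 CPM in combination pool 1 and 5743 CPM in PT2385 pool 1, against 331 to 925 CPM elsewhere, and the 7 B and plasma cell markers reached 6058 CPM in the untreated pool against 92.8 to 167 CPM elsewhere. The 7 neutrophil and mast cell markers reached 3579 CPM in ICB pool 1 and 1860 CPM in combination pool 1, against 0 to 20.2 CPM elsewhere. In ICB pool 1, 1816 of 1818 UMIs of the neutrophil marker S100a9 came from 1 cell. In 9 of the 256 cells at least 2% of the UMIs belonged to these lists. They were 2 cells of combination pool 1, 4 of ICB pool 1, 2 of PT2385 pool 1 and 1 of the untreated pool, and results are given without them where that changes a call. Library totals ran from 59839154 to 81960504 UMIs, and those over the Tcf7-expressing cells from 111899 to 908333. Among kept cells 174 barcode sequences recurred in more than 1 library, none of them shared between Tcf7-expressing cells.

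Since TCF-1 binds promoters and enhancers at a TCF/LEF element, promoters of the genes that stood highest in these cells were searched for it. The letters CTTTGA, or TCAAAG on the other strand, were sought on both strands from 250 bases before to 50 after each RefSeq gene start (build GRCm38.p6). They were present in 16.4% of the 201 promoters of 136 matched genes that were higher in Tcf7-expressing than in Havcr2+ cells, in 13.5% of the 251 promoters of genes that were lower, and in 16.0% of all 32851 promoters. The share in the higher genes was thus close to that of all promoters. Of the 12 genes with the largest ratio, Lef1, whose product is the sister factor of TCF-1, and Cmah, which encodes an enzyme that hydroxylates sialic acid, had a match. Their promoters are shown because they belong to leading genes of the cells, with the element in capitals.
Lef1, chr3:131156044-131156343, plus strand: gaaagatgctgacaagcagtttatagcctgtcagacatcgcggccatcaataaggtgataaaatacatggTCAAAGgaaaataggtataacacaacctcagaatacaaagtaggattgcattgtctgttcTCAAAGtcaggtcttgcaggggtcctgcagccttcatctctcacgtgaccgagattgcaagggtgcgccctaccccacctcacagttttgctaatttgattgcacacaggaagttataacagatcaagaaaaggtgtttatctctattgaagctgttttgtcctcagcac
Cmah, chr13:24327154-24327453, plus strand: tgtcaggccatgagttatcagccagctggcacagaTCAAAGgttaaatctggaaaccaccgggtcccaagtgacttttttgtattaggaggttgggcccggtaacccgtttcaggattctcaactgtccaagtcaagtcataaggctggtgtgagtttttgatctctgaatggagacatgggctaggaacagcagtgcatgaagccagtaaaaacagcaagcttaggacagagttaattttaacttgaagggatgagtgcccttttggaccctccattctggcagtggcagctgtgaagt
The Lef1 stretch holds 2 matches, at 180 and 120 bases before the gene start, and lies at 1 of several RefSeq starts of Lef1. The Cmah stretch holds 1, at 215 bases before it. S1pr1 and Ccr7 had no entry among the RefSeq starts used, so their promoters were not searched.

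Abundance was compared first. The cells made up 14.3% and 8.05% of gated CD8 T cells in the combination pools (19 of 133 and 12 of 149), 48.7% and 27.8% in the ICB pools (112 of 230 and 42 of 151), 15.3% and 14.0% in the PT2385 pools (28 of 183 and 16 of 114) and 8.54% in the untreated pool (27 of 316). Exact 95% Clopper-Pearson intervals, which cover counting error only, ran from 42.1 to 55.4% in ICB pool 1 and from 20.8 to 35.7% in ICB pool 2. In the other 5 libraries their upper ends lay between 12.2 and 21.8%. The share was higher in both ICB-alone pools than in the other 5 libraries. However, the interval of ICB pool 2 overlapped those of combination pool 1 and of both PT2385 pools. The interval of ICB pool 1 lay above that of ICB pool 2 and of every other library.

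**Figure D1:**
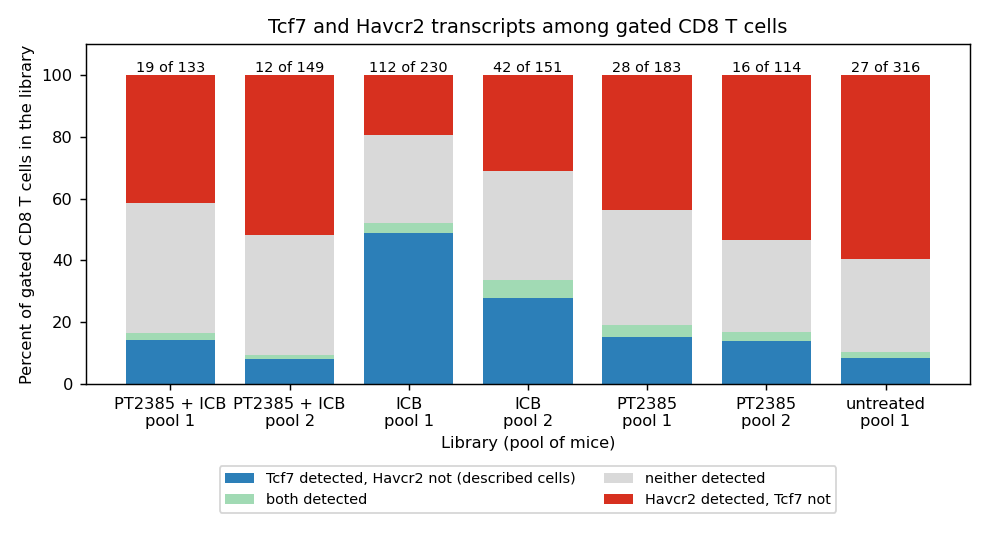
Percent of gated CD8 T cells in each of the 7 libraries (vertical axis) with Tcf7 but not Havcr2, both, neither, or Havcr2 but not Tcf7 detected, with the number of Tcf7-expressing cells over the gate size above each bar. The Tcf7-expressing share was 48.7% and 27.8% in the ICB pools and between 8.05% and 15.3% in the other 5.

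Havcr2+ cells were least frequent in the ICB pools, with 41.4% and 51.7% of the gate in the combination pools, 19.6% and 31.1% in the ICB pools, 43.7% and 53.5% in the PT2385 pools and 59.5% in the untreated pool. The gate as a whole was 2.15 to 3.97% of kept cells, and it did not separate the groups. Detection of Tcf7 and Havcr2 depends on depth, and the median Tcf7-expressing cell held 6104 to 8262 UMIs across libraries. After each gated cell was thinned to 3000 UMIs, which left out 109 of 1276 cells, the shares were 10.9% and 7.63% in the combination pools, 36.7% and 19.9% in the ICB pools, 10.9% and 7.41% in the PT2385 pools and 6.94% in the untreated pool. The ICB pools remained the highest. The TIM-3 antibody binds the protein that Havcr2 encodes, and whether it changes Havcr2 transcripts was not tested.

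Across the 4 libraries with PT2385 the share averaged 12.9 ± 3.29%, against 28.4 ± 20.1% in the 3 without (SD), a difference of -15.4 percentage points that the two-sided exact permutation test over libraries did not separate from their spread (p = 0.200, Benjamini-Hochberg p = 0.446 over 6 tests). With ICB the share averaged 24.7 ± 18.0% (n = 4), against 12.6 ± 3.59% without (n = 3), a difference of 12.1 points (exact permutation p = 0.371, adjusted 0.446). The smallest p these 35 assignments allow is 0.0286. As a percentage of all kept cells, the differences were -0.625 points for PT2385 (exact permutation p = 0.0857, adjusted 0.446) and 0.417 points for ICB (exact permutation p = 0.514, adjusted 0.514). Neither treatment, averaged over the other, thus shifted the share beyond the spread between pools, and leaving out ICB pool 1 reduced the difference to -5.26 points for PT2385 and 4.09 points for ICB.

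The contrast within ICB-treated mice, chosen after the shares had been seen, was larger. The share averaged 11.2 ± 4.41% in the combination pools and 38.3 ± 14.8% in the ICB pools (SD, n = 2 each), a difference of -27.1 points, for which the exact permutation test gives 0.333, the smallest p that 2 against 2 allows. A count model over the 4 Tcf7 and Havcr2 subsets (edgeR's quasi-likelihood test) gave a log2 fold change of -1.81 ± 0.35 (SE) for Tcf7-expressing cells (adjusted p = 0.000852) and 0.91 for Havcr2+ cells (adjusted p = 0.0220). The same model gave an interaction of PT2385 and ICB of -2.59 ± 0.57 for Tcf7-expressing cells (adjusted p = 0.00253), so the share moved differently with PT2385 depending on ICB in this model. Combination against untreated gave 0.37 ± 0.46 (adjusted p = 0.586). The interaction rests on a single untreated pool. In every contrast of this model the 4 subsets add up to the gate. A fall in 1 subset therefore goes with a rise in others, and the Havcr2+ value is not separate evidence. The model also shares its spread among these dependent subsets, so its p-values can overstate what so few pools show.

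The transcripts that set Tcf7-expressing cells apart from Havcr2+ cells of the same libraries are given as a description with no test, because Tcf7 and Havcr2 chose the cells. A gene was counted where its mean CPM differed at least 2-fold and all 7 libraries lay on the same side, with ratios taken after adding 10 CPM. Among 6569 genes with at least 20 CPM in either set, 179 were higher (2.72%) and 233 lower (3.55%). These shares are the background for the list counts that follow, and all log2 ratios are of Tcf7-expressing over Havcr2+ cells.

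Genes of naive, memory and stem-like T cells stood out on the high side. Of 21 measured genes of that list, 12 were higher and none lower (median log2 ratio 1.56, against -0.01 for all genes). Lef1, which encodes the TCF-1 relative LEF-1, had a lowest, median and highest level of 299, 470 and 783 CPM over the 7 libraries of Tcf7-expressing cells, against 20.7, 34.8 and 40.4 CPM in Havcr2+ cells. Klf2, which encodes a factor that holds lymphocytes in a quiescent, circulating state, had 131, 251 and 460 CPM, against 3.85, 13.3 and 21.2 CPM. The 2 sets of libraries did not overlap for either gene.

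Homing genes followed. S1pr1, which encodes the receptor for lymphocyte exit from tissue, had a lowest, median and highest level of 48.4, 115 and 200.4 CPM in Tcf7-expressing cells, against 0, 1.42 and 6.14 CPM in Havcr2+ cells. Ccr7, which encodes the chemokine receptor for entry to lymph nodes, had 61.6, 167 and 268 CPM, against 0, 4.09 and 32.5 CPM. Both genes were low in Havcr2+ cells, and again no library overlapped.

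Among transcription factors, Bach2 averaged 610.1 ± 209 CPM in Tcf7-expressing cells and 103 ± 53.1 CPM in Havcr2+ cells (SD, n = 7 libraries), a log2 ratio of 2.46. Its product restrains effector differentiation. Satb1, which encodes a chromatin organiser, had a log2 ratio of 1.56, Myb one of 2.32, Eomes one of 1.30 and Id3 one of 1.47. On the low side were Id2, with a log2 ratio of -1.69, and Tbx21, which encodes the effector regulator T-bet, with -1.31. Over the 25 measured T cell fate regulators, 6 were higher and 4 lower (median 0.09).

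Tox behaved otherwise. Its product establishes and maintains the exhausted and progenitor-exhausted states. It had a lowest, median and highest level of 358, 488 and 920.5 CPM in Tcf7-expressing cells, against 477, 593 and 1236 CPM in Havcr2+ cells, and the libraries overlapped. Ikzf2, which encodes Helios, averaged 749 ± 236 CPM, against 294 ± 158 CPM in Havcr2+ cells.

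Checkpoint receptors were lower as a group, with 11 of 17 measured genes lower and 1 higher (median -1.30). Pdcd1 had a lowest, median and highest level of 10.1, 101.3 and 197 CPM in Tcf7-expressing cells, against 344, 546 and 618 CPM in Havcr2+ cells. Ctla4 had 168, 359 and 500.5 CPM, against 715, 1085 and 1228 CPM, so both receptors were reduced but still detected. Lag3, Tigit, Entpd1, which encodes the ectonucleotidase CD39, and Tnfrsf9, which encodes the costimulatory receptor 4-1BB, were also lower, with log2 ratios of -2.24, -1.17, -2.30 and -2.35. The exception was Btla, which encodes an inhibitory receptor and averaged 53.9 ± 21.6 CPM against 17.0 ± 8.10 CPM.

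Cytotoxic genes were lower too, with 11 of 19 measured genes lower and none higher (median -1.57). Gzmb, which encodes the killing protease granzyme B, had a lowest, median and highest level of 31.3, 70.3 and 167 CPM in Tcf7-expressing cells, against 919, 1902 and 3426 CPM in Havcr2+ cells. Ccl4, which encodes a chemokine released by activated T cells, had 56.2, 86.4 and 325 CPM, against 709, 2008 and 2518 CPM. The libraries did not overlap for either gene. Gzma, Prf1, which encodes perforin, and Ifng, which encodes interferon γ, had log2 ratios of -4.43, -2.34 and -2.66. Ccl5 was lower by a smaller margin, at 3291 ± 1185 CPM against 7838 ± 2264 CPM.

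Of the residency and migration list, 4 of 19 genes were higher, Ccr7, S1pr1 and Cxcr4 among them, and 6 lower. Cxcr6, which encodes a chemokine receptor of tissue-resident T cells, had a lowest, median and highest level of 87.0, 188 and 265 CPM in Tcf7-expressing cells, against 481, 651 and 903 CPM in Havcr2+ cells. Itgae and Itga1, which encode integrin chains of resident T cells, had log2 ratios of -1.58 and -1.80. Slamf6, which encodes a receptor used to mark progenitor cells, was at 132 ± 47.6 CPM against 8.71 ± 5.96 CPM. Less familiar leading genes were Aff3, at 392 ± 124 against 10.3 ± 8.19 CPM, Sidt1, at 511 ± 140 against 47.9 ± 17.3 CPM, and Dapl1, at 94.1 ± 31.9 against 0.29 ± 0.77 CPM.

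**Figure D2:**
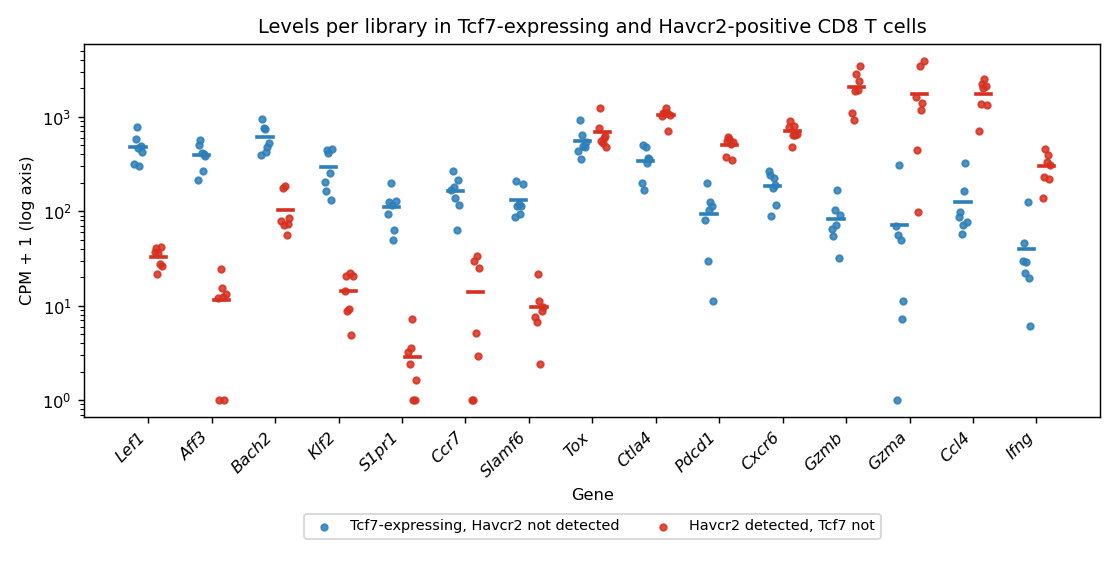
CPM plus 1 (log axis) of 15 genes in Tcf7-expressing cells (blue) and in Havcr2+ cells (red), 1 point per library with a bar at the mean of 7. Lef1, Ccr7 and S1pr1 lie wholly higher in the blue points, Pdcd1 and Gzmb wholly lower, and Tox overlaps.

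Myeloid cells (at least 10 C1q UMIs, no Cd3 UMI) gave the level that free RNA or shared expression can bring. It was at most 16.1 CPM for Lef1, S1pr1, Ccr7, Pdcd1, Cxcr6 and Gzmb, but 169 CPM for Klf2, 132 CPM for Bach2, 108 CPM for Klf3 and 528 CPM for Ccl4. Part of those 4 signals could therefore come from outside the T cells, which was not tested. Thinning both subsets to 3000 UMIs per cell left 120 genes higher and 228 lower, so the count of higher genes fell by more than that of lower ones.

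Homing and checkpoint transcripts were then read cell by cell, as shares of the 256 cells with at least 1 UMI. Lef1 was detected in 75.8% of them, against 16.3% of Havcr2+ cells and 0.824% of myeloid cells. S1pr1 was detected in 50% and Ccr7 in 39.5%, against 0.904% and 2.53% of Havcr2+ cells and 4.38% and 1.87% of myeloid cells. Pdcd1 was detected in 23.4%, against 86.4% of Havcr2+ cells, and Cxcr6 in 40.2%, against 94.6%. The cells were thus mixed for both kinds of gene. These shares join all libraries, and ICB pool 1, with 112 of the 256 cells, weighs most in them. Slamf6 was detected in 45.3%, but also in 33.3% of myeloid cells, so its share in single cells says little. Tox was detected in 71.9%.

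At least 1 of the homing genes Ccr7 and S1pr1 was detected in 161 of the 256 cells and at least 1 of Pdcd1 and Cxcr6 in 126. Homing genes alone were found in 96 cells (37.5%), Pdcd1 or Cxcr6 alone in 61 (23.8%), both kinds in 65 (25.4%) and neither in 34. Among the 161 cells with a homing gene 17.4% had Pdcd1, against 33.7% of the cells without one. After thinning to 3000 UMIs those shares were 13.6% and 12.5%, with Pdcd1 left in 32 cells, against 60 before. The thinned libraries went both ways, at 42.9% against 21.1% in PT2385 pool 1 and 12.5% against 37.5% in PT2385 pool 2. For Cxcr6 the shares were 32.3% against 53.7%, and 18.6% against 34.4% after thinning. All of these shares but those of the 2 PT2385 pools join cells of all libraries, whose make-up differed, and none was tested.

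The mixture differed between libraries. Cells with Pdcd1 or Cxcr6 alone were 52.6% and 33.3% in the combination pools, 12.5% and 23.8% in the ICB pools, 39.3% and 31.2% in the PT2385 pools and 25.9% in the untreated pool. All 4 PT2385-treated pools thus had a larger share of such cells than all 3 pools without it, and after thinning the shares were 31.2 to 47.4% with PT2385 and 9.35 to 24.4% without. Cells with homing genes alone were 15.8% and 33.3% in the combination pools, 48.2% and 31.0% in the ICB pools, 25% in each PT2385 pool and 40.7% in the untreated pool. Combination pool 2 lay above ICB pool 2 in that share, so pools with and without PT2385 overlapped. These shares rest on 12 to 112 cells per library and were not tested. The grouping was not among the planned comparisons. Cxcr6, which helps to define it, by itself separated the pools with and without PT2385, so the shares are not separate evidence from that gene.

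**Figure D3:**
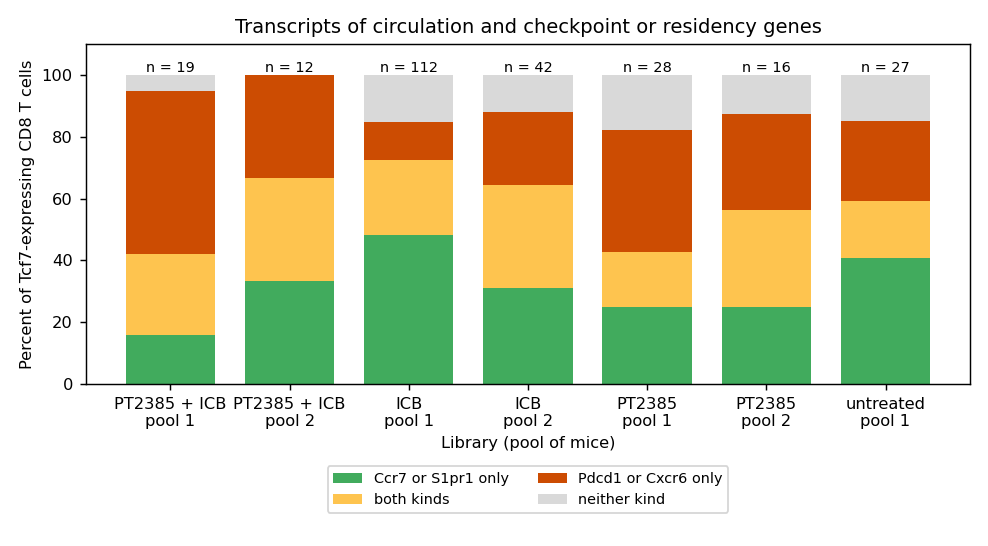
Percent of Tcf7-expressing cells in each of the 7 libraries (vertical axis, n above each bar) with transcripts of Ccr7 or S1pr1 only, of Pdcd1 or Cxcr6 only, of both kinds or of neither. Cells with Pdcd1 or Cxcr6 only were 31.2 to 52.6% in the 4 libraries with PT2385 and 12.5 to 25.9% in the 3 without.

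Gene expression within the Tcf7-expressing cells was next compared between treatments on UMIs summed per library, with edgeR's quasi-likelihood test and Benjamini-Hochberg adjustment over all genes tested. PT2385, adjusted for ICB, changed 1 of 4131 genes (0.0242%), and 220 genes had an unadjusted p under 0.05. The gene was Cxcl9, which encodes an interferon-induced chemokine that draws in T cells. It was at 23 and 0 CPM in the combination pools, 49.5 and 70.3 in the ICB pools, 8.79 and 0 in the PT2385 pools and 521 in the untreated pool, a log2 fold change of -4.88 ± 0.67 (SE, adjusted p = 0.0175). That value rests on few cells: 99 of 103 untreated UMIs came from 1 cell, as did 39 of 45 in ICB pool 1. DESeq2 did not call it (adjusted p = 0.999), nor did edgeR without combination pool 2 or without either PT2385 pool. Without the untreated pool no gene passed, Cxcl9 being then too low to test, and myeloid cells held 505 to 1284 CPM of it.

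The 2 genes of next smallest p were also interferon-induced. Cxcl10, which encodes a chemokine for the same receptor, was at 51.8 and 62.6 CPM in the combination pools, 142 and 95.7 in the ICB pools, 35.2 and 31.3 in the PT2385 pools and 678 in the untreated pool (log2 fold change -2.85 ± 0.49, adjusted p = 0.0871, edgeR). Slfn5, which encodes a Schlafen family protein, was at 11.5 and 0 CPM in the combination pools, 108 and 33.8 in the ICB pools, 66.0 and 31.3 in the PT2385 pools and 283 in the untreated pool (-2.71 ± 0.50, adjusted p = 0.119). Neither passed. The untreated pool was the highest for both, and 111 of its 134 Cxcl10 UMIs came from 1 cell. Without the 9 cells rich in other lineages' transcripts, a choice made after seeing the data, 10 genes passed and all 10 fell, Cxcl9, Cxcl10, Slfn5, Oasl2, Gbp2, Ifitm2 and Ifitm3 among them. Tyrobp and Fcer1g, which are myeloid markers, and Klf2 were the others.

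Klf2 was not set apart by the untreated pool alone. It was at 202 and 161 CPM in the combination pools, 448 and 408 in the ICB pools, 251 and 131 in the PT2385 pools and 460.2 in the untreated pool. All 4 pools with PT2385 lay below all 3 without, at 186 ± 51.7 against 439 ± 27.4 CPM (SD). Over all kept cells of the libraries Klf2 also separated the pools, narrowly, at 114 to 149 CPM with PT2385 and 152 to 222 CPM without. A separation in this direction was thus not found in Tcf7-expressing cells alone. In Havcr2+ cells Klf2 was low and the pools overlapped, at 3.85 to 21.2 CPM with PT2385 and 7.75 to 19.8 CPM without. In myeloid cells it was at 119 to 184 CPM with PT2385 and 173 to 243 CPM without, which overlap. The fold change was -1.27 ± 0.25 on the log2 scale (unadjusted p = 0.000149, adjusted p = 0.155, edgeR), so Klf2 did not pass over all genes. Over 17 settings, the one reported included, the log2 fold change ran from -1.44 to -0.96, and it passed in 3 of them: DESeq2, no filter on low counts, and without the 9 cells just named (-1.33 ± 0.25, adjusted p = 0.0127).

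S1pr1, of the same naive and memory list, was looked up after its values had been seen. It was at 92.2 and 125 CPM in the combination pools, 200.4 and 115 in the ICB pools, 48.4 and 62.6 in the PT2385 pools and 126 in the untreated pool (-0.86 ± 0.30, adjusted p = 0.855, edgeR). The pools with and without PT2385 overlapped for it, and it did not pass. In all, 4 of the 19 tested genes of the list were lower in all 4 pools with PT2385 than in all 3 without, Klf2, Klf3 and Dapl1 among them, against 117 of 4130 genes (2.83%), and none was higher, against 3.46% of genes. No gene of the list passed, 5 had an unadjusted p under 0.05, all negative, and the median log2 fold change was -0.26, against 0.02 for all genes. Lef1, Bach2 and Ccr7 had log2 fold changes of -0.39, -0.23 and 0.28.

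Residency, checkpoint and cytotoxic genes did not pass for PT2385. Cxcr6 was at 265 and 241 CPM in the combination pools, 87.0 and 177 in the ICB pools, 224 and 188 in the PT2385 pools and 116 in the untreated pool, with no overlap between pools with and without PT2385 (0.91 ± 0.27, adjusted p = 0.669, edgeR). Pdcd1 was at 80.6 and 197 CPM, 28.6 and 101.3, 123 and 113, and 10.1 in the same order, with overlap (1.58 ± 0.51, adjusted p = 0.818). It passed in 2 alternatives, with no filter on low counts and with at least 2 Tcf7 UMIs per cell. Of the checkpoint list 8 of 12 tested genes and of the cytotoxic list 10 of 13 had a positive fold change, none passing (median 0.18 and 0.32). Gzma and Gzmb had negative log2 fold changes, of -1.29 ± 0.83 (adjusted p = 0.964) and -0.27 ± 0.43 (adjusted p = 0.988, edgeR). Hypoxia and glycolysis genes, many of them HIF targets, had a median of 0.12 with none of 17 passing. Of the 2 HIF pathway genes tested, Hif1a had 0.58 ± 0.29 (adjusted p = 0.904) and Arnt -1.28 ± 0.47 (adjusted p = 0.873, edgeR). Arnt was lower in all 4 pools with PT2385 than in all 3 without, as were 2.83% of genes.

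**Figure D4:**
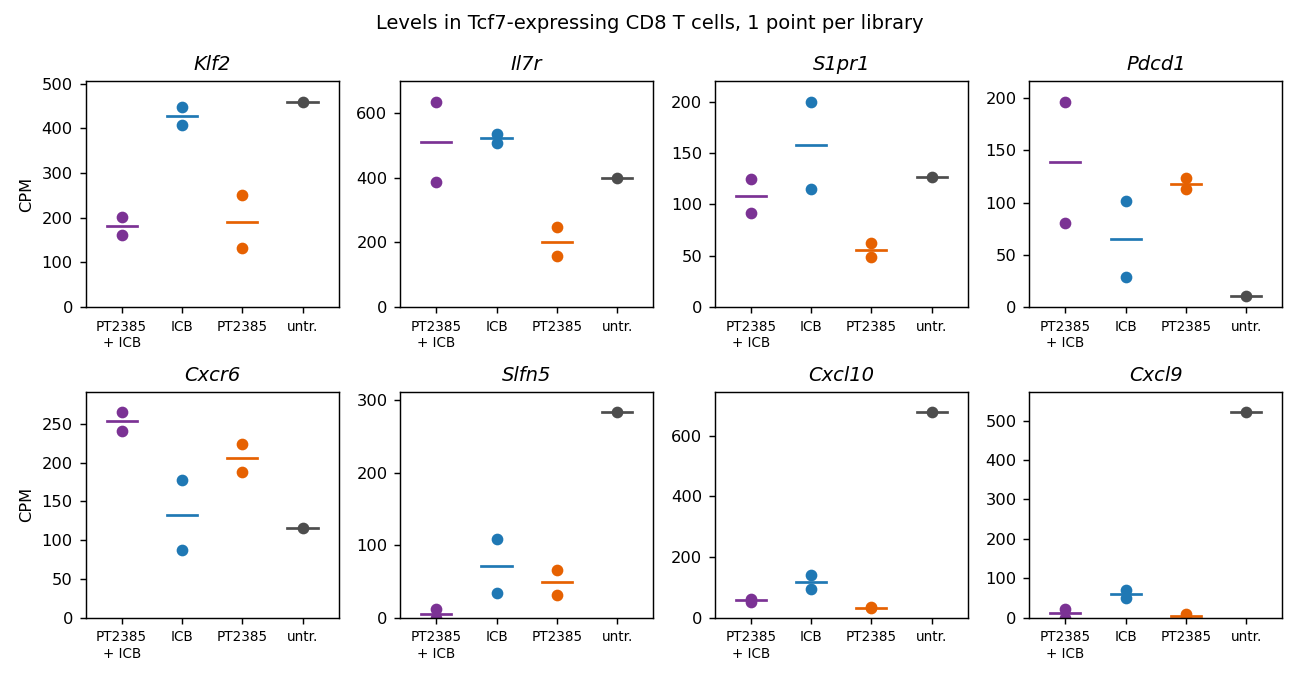
CPM in Tcf7-expressing cells of 8 genes, 1 point per library with a bar at the group mean (untr., the single untreated library). Klf2 lies at 131 to 251 CPM in the 4 libraries with PT2385 and 408 to 460.2 CPM in the 3 without, while Cxcl9 and Cxcl10 are set apart by the untreated library.

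The type I interferon list had the lowest median for PT2385 among the 8 lists plotted. Of 26 tested genes 24 had a negative fold change (median -0.54, against 0.02 for all genes), 9 had an unadjusted p under 0.05 and none passed. Ifi203, which encodes an interferon-induced DNA sensor family protein, was at 294 and 384 CPM in the combination pools, 373 and 318 in the ICB pools, 391 and 313 in the PT2385 pools and 617 in the untreated pool (-0.40 ± 0.23, adjusted p = 0.948, edgeR). Bst2, which encodes tetherin, an inhibitor of virus release, was at 242 and 259 CPM, 329 and 262, 453 and 225, and 622 in the same order (-0.55 ± 0.26). The untreated pool was highest for both. Summed over the list it had 6478 CPM, against 2597 to 4297 CPM in the other 6 pools. Without it, 17 of 24 genes were negative with a median of -0.16, so the median depends on that pool. In Havcr2+ cells the untreated pool, with 3410 CPM, lay within the 2480 to 3921 CPM of the others. The GBP and interferon γ list had 14 of 18 genes negative (median -0.38), none passing.

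**Figure D5:**
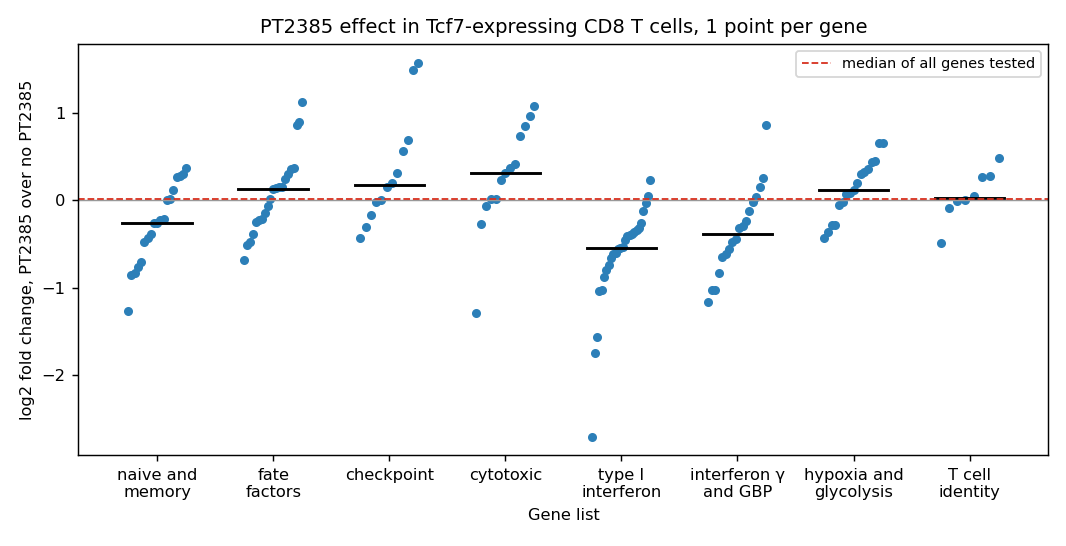
Log2 fold change of PT2385 over no PT2385 in Tcf7-expressing cells, 1 point per tested gene in 8 gene lists, black bars at list medians and a dashed line at the median of all genes. The type I interferon list has a median of -0.54 with 24 of 26 genes below 0, and none of the genes shown passed the test.

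The difference between the PT2385 effect in Tcf7-expressing cells and that in Havcr2+ cells was tested in 1 model over both subsets. It passed for 0 of 7163 genes (0.0%) by edgeR, with 358 at an unadjusted p under 0.05, so no effect of PT2385 on a single gene was shown to be particular to Tcf7-expressing cells. The smallest p-values were those of Uck2, which encodes a nucleotide salvage kinase, at 2.80 ± 0.43 (adjusted p = 0.0981), and of Gbp2 at -2.06 ± 0.37 (adjusted p = 0.247) and Cxcl9 at -4.31 ± 0.81 (adjusted p = 0.255). In the untreated pool 1 cell held 33 of 56 Gbp2 UMIs, and 1 cell held 99 of 103 Cxcl9 UMIs. For the type I interferon list 26 of 29 differences were negative (median -0.53, against -0.006 for all genes), none passing. The untreated pool, high for this list in Tcf7-expressing but not in Havcr2+ cells, enters these differences.

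ICB, adjusted for PT2385, changed 1 of 4131 genes (0.0242%), with 178 at an unadjusted p under 0.05. It was Ttr, which encodes transthyretin, a product of choroid plexus epithelium and not of T cells. Ttr was at 230.4 and 223 CPM in the combination pools, 42.9 and 90.0 in the ICB pools and 0 in all 3 pools without ICB. The mean of 147 ± 94.6 CPM with ICB (SD, n = 4) was at least 28.6-fold higher than the 5.13 CPM that 3 counts over the group without ICB would give (adjusted p = 0.00212, edgeR). Myeloid cells of the same libraries held 2120 and 2048 CPM of it in the combination pools, 707 and 618 in the ICB pools, 29.0 and 39.2 in the PT2385 pools and 0.277 in the untreated pool. Ttr was thus higher in myeloid than in Tcf7-expressing cells of every library, and whether it came from outside the cells was not tested. Without the 9 cells rich in other lineages' transcripts 8 genes passed for ICB. Ttr and Gm42418 rose, and Cxcl9, Cxcl10, Slfn5, Ifitm2, Ifitm3 and the myeloid marker Lyz2 fell.

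With all 256 cells, no gene of the naive, checkpoint, cytotoxic and interferon lists passed for ICB. Il7r, which encodes the survival cytokine receptor of naive and memory T cells, was at 386 and 635 CPM in the combination pools, 508 and 535 in the ICB pools, 246 and 156 in the PT2385 pools and 399.5 in the untreated pool (0.89 ± 0.27, adjusted p = 0.933, edgeR). The naive and memory list had 13 of 19 genes positive (median 0.22). Of 12 tested heat-shock and dissociation-stress genes, 4 (Hspa5, Hspa8, Hsph1 and Hsp90ab1) were lower in all 4 pools with ICB than in all 3 without, against 2.81% of genes, and the list's median was -0.54 with none passing. Between subsets the ICB effect differed for 1 of 7163 genes (0.014%), Gm42418, a locus that shares sequence with ribosomal RNA, at 1.51 ± 0.21 (adjusted p = 0.0284).

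Within ICB-treated mice, adding PT2385 changed 0 of 5020 genes (0.0%) by edgeR, and 0 by DESeq2, with 251 at an unadjusted p under 0.05 by edgeR. Without ICB pool 2 the count was 18 and without combination pool 2 it was 4. Klf2 had a log2 fold change of -1.30 ± 0.35 (adjusted p = 0.970), the naive and memory list had 14 of 20 genes negative (median -0.32), and the checkpoint and cytotoxic lists had 10 of 13 and 13 of 18 genes positive (median 0.40 and 0.36). The combination and ICB pools also enter the PT2385 effect above, so these values are not independent of it. In simulated counts this contrast recovered 16.1% of 2-fold changes, so a count of 0 does not show that genes were unchanged.

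Combination against untreated gave 9 of 5020 genes (0.179%), with 214 at an unadjusted p under 0.05. Ttr was the single gene that rose, to 230.4 and 223 CPM against 0 in the untreated pool, at least 15.0-fold above its floor. The 8 that fell were Igkc, Ighg2b, Igha, Jchain, Mzb1, Hsp90b1, Cxcl9 and Cxcl10. The first 5 are plasma cell genes, and 911 of 925 untreated Igkc UMIs, as well as all 560 of Ighg2b, all 218 of Jchain, all 80 of Igha and all 69 of Mzb1, came from 1 cell. Hsp90b1, which encodes an endoplasmic reticulum chaperone, drew 142 of its 190 untreated UMIs from 1 cell. Without the 9 cells rich in other lineages' transcripts 11 genes passed and none of these 6 was among them. Ttr rose, and Cxcl9, Cxcl10, Slfn5, Oasl2, Ifitm2, Ifitm3, Atf3, Plac8 and the myeloid markers Lyz2 and Fcer1g fell. The single untreated cells that held most Cxcl9, Cxcl10 and Lyz2 UMIs bear on these falls too. The interaction of both treatments passed for 1 gene (0.0199%), Igkc, and for none without the 9 cells. In simulated counts 12.2% of 4-fold interactions were recovered, so few calls do not show that interactions were absent.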

How the data were processed

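The deposited files hold raw UMI counts per gene and cell barcode for 32285 genes in 7 libraries, per the file headers, which name Cell Ranger 7.0.0. The submitters' processing notes name Cell Ranger 2.2.0, Seurat 5 and the genome build GRCm39, without roles. Barcodes under 300 genes or over 10% mitochondrial UMIs were dropped. No doublets were removed in the main results. Scrublet (scanpy 1.11.5) marked 11 barcodes by its own threshold, so it did not work as a caller, and the highest scores (0.8% per 1000 barcodes) were removed as an alternative.

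UMI counts were summed per library over the cells and tested with edgeR 4.0.16 in R 4.3.3 (TMM factors, filterByExpr, quasi-likelihood test, Benjamini-Hochberg adjustment, threshold 0.05). PT2385 and ICB effects came from an additive model, other contrasts from 1 mean per group with the spread shared by all libraries, which assumes that the lone untreated pool varies like the others. DESeq2 1.42.0, RLE factors, no filter, stricter cell limits, at least 2 Tcf7 UMIs, no C1q UMI and leaving out libraries were alternatives. The scripts were tested on simulated counts with known fold changes. For PT2385 46.7% of 2-fold and 95.5% of 4-fold changes were recovered, and for ICB 54.5% and 90.1%. Recovery was 16.1% and 65.6% for combination against ICB, 3.19% and 40.7% for combination against untreated, and 1.09% and 12.2% for the interaction. Few calls in those contrasts therefore do not show that genes were unchanged. Shares were compared with exact permutation tests (scipy 1.17.1). The 38 symbols used more than once were kept as separate genes, and the listed Mx1 and H2az1 were not found. Per comparison, genes were named by adjusted p and level of at least 20 CPM, by the largest ratios at 50 CPM or more, and as the 3 highest of each list, and genes outside this were chosen after their values were seen. The cells and the 26 lists were chosen with earlier results of these data known. Some genes of the lists are counted but not reported by name here.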

Additional observations from a re-analysis of the deposited data

Results flagged for a closer look

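The count model gave an interaction of PT2385 and ICB for the share of Tcf7-expressing cells of -2.59 on the log2 scale. The effect of PT2385 on the share thus depended on ICB in that test. It shares its spread among 4 subsets that add up to the gate, and it rests on a single untreated pool. Igkc also had an interaction, of 10.5, with 925 UMIs in the untreated pool, 911 of them in 1 cell. The ICB effect on Gm42418 differed between Tcf7-expressing and Havcr2+ cells by 1.51 on the log2 scale. Of 28 sets of 4 libraries examined for a library far from the other 3, 6 had one, where chance gives about 1 in 20. Saa3, which encodes an acute-phase protein, stood at 276 CPM in combination pool 1, in the set with PT2385 and in that with ICB. All 48 of its UMIs there came from 1 cell. Ighg2b stood at 11.5 CPM (2 UMIs) in the same pool and the same 2 sets. Igha stood at 8.94 CPM (1 UMI) in combination pool 2, and Jchain at 6.26 CPM (1 UMI) in PT2385 pool 2. With so few UMIs or cells behind them, these flags do not show that a library as a whole stood apart.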

How the results depend on the processing

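No paired analysis was possible because the mouse numbers are not shared between groups. For the genes named by the fixed rule, 287 values under the alternatives kept their direction and side of the threshold, 36 gained and 25 lost significance, and none reversed. Lef1, looked up besides and not called, ran from -0.58 to 0.10 for PT2385. The edgeR model over subsets gave -1.81 for the share, combination against ICB, where the permutation test could not pass. Without a filter on low counts the genes passing were 72 for PT2385, 61 for ICB, 54 for combination against ICB, 44 for combination against untreated, 19 for the interaction, and 28 and 17 for the differences between subsets in the PT2385 and ICB effects. DESeq2 gave 3 for PT2385 and 3 for ICB. Removing the highest Scrublet scores gave 0 for PT2385. At least 2 Tcf7 UMIs gave 3 and 2, no C1q UMI gave 0 and 0, with 2 for the interaction, and removing cells rich in other lineages' transcripts, chosen after seeing the data, gave 10 and 8, with 0 for the interaction. A model with 1 mean per group gave 3 for PT2385. With 1 library left out at a time, the PT2385 effect passed for 0 to 3 genes, the ICB effect for 1 to 3, combination against ICB for 0 to 18, combination against untreated for 5 to 14, the interaction for 0 to 3 and both differences between subsets for 0 to 3. For the share it gave -25.3 to -5.26 points for PT2385, 4.09 to 17.6 for ICB and -37.5 to -16.6 for combination against ICB. A 3-fold limit left 219 genes that differed from Havcr2+ cells, against 412. The cause of these changes was not tested. The depth of 12 to 112 cells per library limits all of these values.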
